A study of Mus musculus with 3 samples.

Results

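The vascular cells of the brain were compared between metastasis-bearing and naive mice in a single-cell RNA data set that had been collected for brain immune cells. The cells were taken from the authors' cluster 6 of the metastasis-bearing table and cluster 6 of the naive table, the naive cluster with the highest mean of Cldn5. A cell was kept when it held at least 1 UMI of Cldn5, the claudin of endothelial tight junctions, and when its barcode stood in only 1 of the tables. This left 359 of 11179 cells, with 305 from 4 metastasis-bearing brains and 54 from 4 naive brains. Of the cluster cells with Cldn5, the condition on barcodes dropped 29 of 334 with metastases and 25 of 79 naive ones. The cells were thus chosen by their Cldn5 values and by clusters built on all genes, so Cldn5 and the endothelial identity of the cells are given as a description.

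All mice were female C57Bl/6 animals of 2 to 3 months, and each state held 2 Cx3cr1+/- (heterozygous) and 2 Cx3cr1-/- (homozygous) brains. Every brain thus lacked at least 1 working copy of Cx3cr1, the receptor for fractalkine on microglia, and brains with both copies were not part of the comparison. Metastases had been started by injecting E0771 cells, a mouse mammary carcinoma line, into the carotid artery about 2 weeks earlier, and the naive mice carried none. A Percoll gradient enriched each dissociated hemisphere for immune cells, a step with no sort for vessels, so the vascular cells are those that came through the gradient. All 8 brains were stained with their own hashing antibody, pooled and run as 1 library.

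Endothelial cells line the vessels, and in the brain they form the blood-brain barrier. Their tight junctions close the space between cells, and transporters such as Slc2a1 carry glucose and other nutrients across, while few caveolae and little Plvap, the protein of fenestrated and leaky vessels, are found in barrier capillaries. Arterial, capillary and venous endothelium differ in their genes, and inflamed venules are where leukocytes leave the blood.

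Each vascular cell was assigned to its brain through the barcode of the hashing antibody, and every difference between states rests on these assignments, so the barcodes are shown for the 8 brains.
metastasis heterozygous 1: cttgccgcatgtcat
metastasis heterozygous 2: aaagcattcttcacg
metastasis homozygous 1: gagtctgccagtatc
metastasis homozygous 2: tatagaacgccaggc
naive heterozygous 1: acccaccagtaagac
naive heterozygous 2: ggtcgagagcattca
naive homozygous 1: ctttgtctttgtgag
naive homozygous 2: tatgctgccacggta
The barcodes are 15 bases long, and any metastasis barcode differed from any naive barcode at 7 to 14 positions. The chosen cells with under 100 hashtag UMIs numbered 9, 0, 0 and 6 in the metastasis-bearing and 7, 2, 0 and 5 in the naive brains, in the order of the list.

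The metastasis-bearing brains held 115, 71, 86 and 33 vascular cells and the naive brains 16, 12, 7 and 19, again in the order of the list. Median raw UMIs per vascular cell ran from 6903 to 12320 in the metastasis-bearing and from 4680 to 12378 in the naive brains. Summed per brain, the corrected UMIs came to between 408593 and 1352690 with metastases and between 50941 and 151552 without. Levels are given in CPM, counts per 1000000 of a brain's summed corrected UMIs, so 1 UMI is worth 0.739 to 2.45 CPM in a metastasis-bearing brain and 6.60 to 19.6 CPM in a naive brain. Naive homozygous brain 1, with 7 cells, is the least precise, and it had 15 before the barcodes of both tables were dropped.

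The deposited values were depth-corrected within each table, and each table is 1 state, so the correction and the state cannot be told apart. A set of 1138 barcodes stands in both tables with equal raw UMI totals, and these cells measure what the correction alone does. Over 10526 genes with at least 50 UMIs in them, the metastasis value minus the naive value had a median of 0.01 and an SD of 0.15 on the log2 scale, ranging from -0.58 to 0.57. Of these genes, 81.7% lay within 0.2 and 94.9% within 0.3 of 0. Differences below about 0.3 in the comparisons that follow are of the size of this offset.

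The chosen cells carried the genes of endothelium, against the label of the samples as brain immune cells. Leaving out Cldn5, on which the cells were chosen, the other 5 endothelial markers of the check (Flt1, Pecam1, Cdh5, Ly6c1 and Egfl7) summed to 6919 to 8149 CPM in the metastasis-bearing and 7610 to 7947 CPM in the naive brains. None of the 5 was under 333 CPM in any brain, though they too entered the clustering. Flt1, a VEGF receptor that entered the choice only through the clustering, was detected in 98.3 to 100% of the cells of each metastasis-bearing brain and 85.7 to 100% in the naive ones. Lymphatic endothelial markers summed to at most 15.1 CPM with metastases and 39.3 CPM without. Red blood cell markers were at 0 in all naive brains and reached at most 2.45 CPM in the others.

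RNA of other cells was present as well and differed between the states. The 5 markers of all immune cells (Ptprc, Coro1a, Laptm5, Cd52, Tyrobp) summed to 235 to 394 CPM in metastasis-bearing and 488 to 844 CPM in naive brains, none of them at 0, and the brains of the states did not overlap. Ptprc UMIs were found in 21.2 to 37.4% of the chosen cells of each metastasis-bearing brain and 8.33 to 43.8% of each naive brain. The 7 microglia markers summed to 82.9 to 240 CPM with metastases and 66.8 to 593 CPM without, and P2ry12, Fcrls, Siglech, Sall1 and Gpr34 were at 0 in naive heterozygous brain 2. Monocyte and macrophage markers (6 genes) summed to 75.9 to 263 CPM and 99.0 to 955 CPM, and 4 of them, Ccr2, Ms4a4c, Ly6c2 and Plac8, were at 0 in naive homozygous brain 1.

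Mural cells, the pericytes and smooth muscle that wrap the vessels, left a strong trace. Their 10 markers summed to 2114 to 3622 CPM in metastasis-bearing brains, and in naive brains from 611 CPM in heterozygous brain 1 to 6531 CPM in heterozygous brain 2. Kcnj8 and Abcc9 were at 0 in naive heterozygous brain 1 and homozygous brain 2, and Tagln and Myh11 in naive homozygous brain 1. T and NK cell markers summed to 26.6 to 108 CPM with metastases and 0 to 501 CPM without, platelet markers to 6.65 to 29.3 and 0 to 353 CPM, and neutrophil markers to 4.89 to 12.3 and 0 to 332 CPM. Markers of the Krt8-high cells summed to 59.2 to 108 CPM and 8.98 to 66.8 CPM. These are clusters rich in keratin 8 that the labels do not name, 0 and 9 with metastases and 4 without. Cluster 9 also held P2ry12 in 96.9% of its cells, so they are not all of 1 kind. Naive cluster 4 held 402 of the 3874 deposited naive cells, barcodes of both tables included, though naive mice carried no metastases. With those barcodes dropped, leaving the cluster out took the naive brains from 957, 537, 337 and 905 cells to 913, 516, 326 and 845. What these naive cells are, and whether their hashtags give the right state, was not tested. The part that these other cell types play in the differences below was not tested, except where a value is given.

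**Figure D1:**
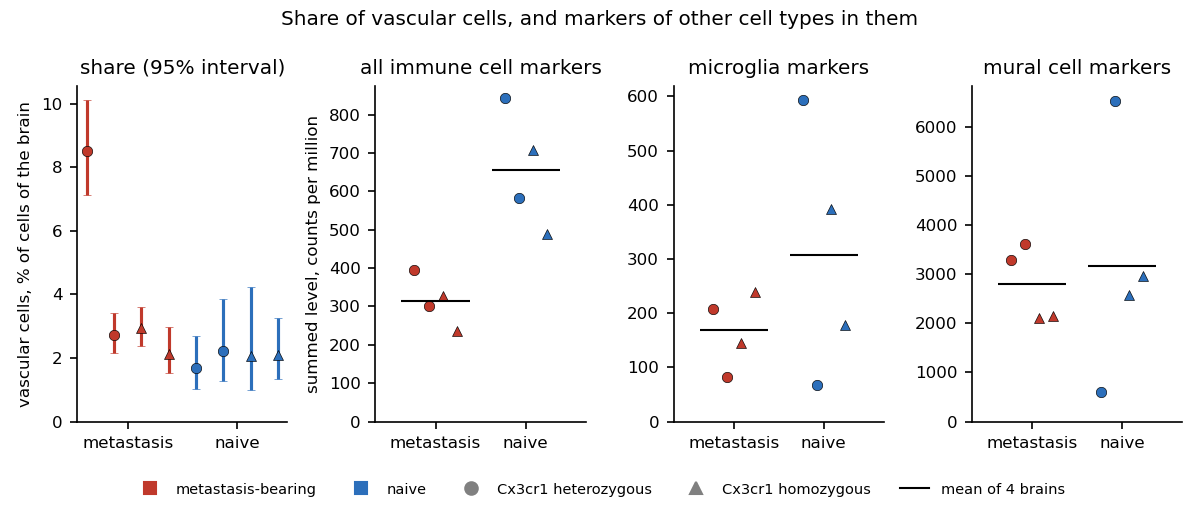
Share of each brain's cells that were chosen as vascular, in percent with 95% Wilson intervals, and summed levels of the marker lists of immune, microglial and mural cells in the vascular cells, in CPM, for 4 metastasis-bearing (red) and 4 naive (blue) brains, circles heterozygous and triangles homozygous. Metastasis-bearing heterozygous brain 1 stands apart at 8.49%, and the immune markers of the states do not overlap.

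Per metastasis-bearing brain, 4.07% ± 2.97 (SD, n = 4) of cells were vascular, and per naive brain 2.02% ± 0.243 (SD, n = 4). The metastasis-bearing brains held 8.49, 2.72, 2.94 and 2.12% (heterozygous 1 and 2, homozygous 1 and 2), and the naive brains 1.67, 2.23, 2.08 and 2.10%. Heterozygous brain 1, with a 95% Wilson interval of 7.12 to 10.1%, was the highest, and the interval of metastasis-bearing homozygous brain 2 (1.52 to 2.97%) spans all 4 naive shares. The means differed by 2.05 percentage points, and by 0.574 without heterozygous brain 1. With the Krt8-high cells left out of the total, the metastasis-bearing brains held 10.3, 2.97, 6.66 and 3.67% (mean 5.89%), all above the naive brains at 1.75, 2.33, 2.15 and 2.25% (mean 2.12%). With the barcodes of both tables kept, the shares were 3.93% and 2.23%. Shares follow the gradient and the authors' clustering, which was done separately in each table, so they describe these preparations and were not tested.

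Among 3328 genes with a mean above 50 CPM, no gene was called higher (0.0%) and none lower (0.0%) with metastases by limma at a Benjamini-Hochberg adjusted p under 0.05. The smallest adjusted p was 0.0619. At an unadjusted p under 0.05 there were 407 genes, 223 with a higher and 184 with a lower level in metastasis-bearing brains. In 152 genes (4.57%) every metastasis-bearing brain lay above every naive brain, and in 116 genes (3.49%) every one lay below. The log2 difference was positive for 1804 genes (54.2%), with a median of 0.03. The genes described next are those with the smallest p and the leading members of each pathway list, and none of them passed this test.

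The leading genes with higher levels were Lrg1, Cpe, Ctla2a and Psmd4. Lrg1 encodes a secreted leucine-rich glycoprotein that modifies TGF-beta signalling in endothelium and marks venous and inflamed vessels. It stood at 959, 659, 546 and 568 CPM in the metastasis-bearing brains and 180, 153, 39.3 and 205 CPM in the naive ones. All 4 brains with metastases were above all 4 without, with means of 683 ± 190 and 144 ± 73.0 CPM (SD, n = 4 each; log2 difference 1.99, SE 0.30, limma adjusted p = 0.0619). This difference kept its direction in all 30 alternative analyses, of which 29 are distinct fits, between 0.91 and 2.84, and the adjusted p ran from 0.000268 to 0.251. Without naive homozygous brain 1 it was 1.65 with an adjusted p of 0.0129.

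Cpe, carboxypeptidase E, which trims peptide hormones, stood at 220, 242, 295 and 338 CPM with metastases and 71.8, 85.9, 58.9 and 125 CPM without. The groups did not overlap (log2 difference 1.26, SE 0.18, limma adjusted p = 0.0619), and without naive homozygous brain 2 the difference was 1.40 (adjusted p = 0.0237). Ctla2a, a cysteine protease inhibitor, reached 2336, 1354, 4074 and 4356 CPM with metastases against 772, 917, 707 and 706 CPM without. Its 2 homozygous metastasis-bearing brains were the highest, and all brains with metastases lay above all naive ones (log2 difference 1.77, SE 0.30, adjusted p = 0.0868). Without metastasis heterozygous brain 2, whose level was the lowest of its group, Ctla2a was at 2.10 with an adjusted p of 0.00432. Psmd4, a ubiquitin receptor of the proteasome, stood at 189 to 257 CPM against 98.2 to 134 CPM (log2 difference 0.70, SE 0.15, adjusted p = 0.199).

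The sequence upstream of Lrg1 is shown because its difference was the largest among the genes with the smallest p, beside that of Cxcl10, the chemokine named in the title of the series. Both are the 250 bases before the gene's start from RefSeq on GRCm38.p6, read along the gene's strand, Lrg1 at chr17:56121947-56122196 (minus strand) and Cxcl10 at chr5:92348890-92349139 (minus strand). Capitals mark matches to the letters searched, which are spelled out after the sequences.
Lrg1: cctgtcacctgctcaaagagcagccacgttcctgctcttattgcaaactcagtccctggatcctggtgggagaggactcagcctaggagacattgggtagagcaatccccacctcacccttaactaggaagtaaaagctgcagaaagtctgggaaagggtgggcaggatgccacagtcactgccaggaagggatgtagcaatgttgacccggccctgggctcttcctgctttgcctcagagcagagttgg
Cxcl10: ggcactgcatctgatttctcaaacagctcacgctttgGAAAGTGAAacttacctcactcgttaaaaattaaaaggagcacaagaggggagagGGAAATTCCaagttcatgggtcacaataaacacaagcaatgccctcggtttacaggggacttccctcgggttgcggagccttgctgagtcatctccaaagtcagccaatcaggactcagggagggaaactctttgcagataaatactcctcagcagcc
On both strands, 3 sets of letters were searched: TTCNNNGAA (STAT type, the same on the other strand), GAAANNGAA (interferon-response type, TTCNNTTTC on the other strand) and GGNNTTTCC (kB type, GGAAANNCC on the other strand). The Cxcl10 window held 1 interferon-type match, beginning at position -213 from the start, and 1 kB-type match at -158, and the Lrg1 window held none of the 3. Of 32817 such windows in the table, 7.01% hold the STAT letters, 7.12% the interferon letters and 4.93% the kB letters.

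The leading genes with lower levels were Ccl4, Ltbp4, Rsrp1, Kctd12b, Tnfsf10 and Alpl. Ccl4, a chemokine that attracts T cells and monocytes and is abundant in activated microglia, stood at 76.1, 73.4, 112 and 41.6 CPM with metastases and 404, 191, 648 and 343 CPM without. Every metastasis-bearing brain lay below every naive one (log2 difference -1.76, SE 0.29, limma adjusted p = 0.077). The immune markers named above were lower in the same brains, and microglia-like cells held 5303 CPM of Ccl4 with metastases and 2717 CPM without. The difference was -0.49 in cells of 2000 to 15000 raw UMIs, where naive homozygous brain 1 was left out, and -0.95 in cells with at least 100 hashtag UMIs. Without naive heterozygous brain 2 it was -2.02 with an adjusted p of 0.0286.

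Ltbp4, which holds latent TGF-beta in the matrix, stood at 270, 364, 151 and 215 CPM with metastases and 566, 563, 589 and 831 CPM without (log2 difference -1.23, SE 0.22, adjusted p = 0.0868). Rsrp1, a gene of an arginine- and serine-rich protein, ran from 153 to 200 CPM with metastases and from 306 to 413 CPM without (-0.79, SE 0.14, adjusted p = 0.0881). Alpl, the tissue alkaline phosphatase of brain vessels, stood at 81.3, 125, 28.3 and 63.6 CPM against 144, 220, 334 and 264 CPM (-1.24, SE 0.26, adjusted p = 0.201). Groups did not overlap in any of these, nor in Kctd12b (65.1 ± 15.3 against 172 ± 48.6 CPM) or Tnfsf10, the death ligand TRAIL (84.0 ± 30.9 against 189 ± 21.2 CPM; SD, n = 4 each).

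**Figure D2:**
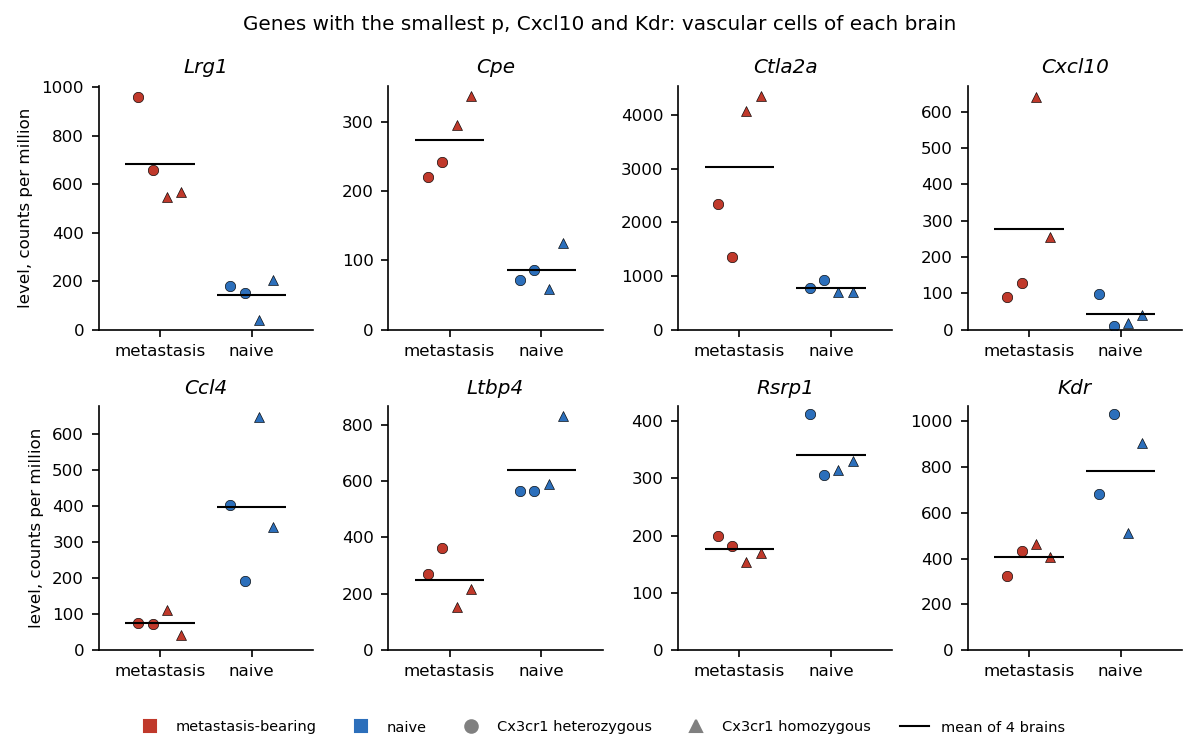
Levels of genes with the smallest p, and of Cxcl10 and Kdr, in the vascular cells of each brain, in CPM, with 4 metastasis-bearing (red) and 4 naive (blue) brains, circles heterozygous, triangles homozygous and bars the mean of 4. Lrg1, Cpe and Ctla2a lie higher with metastases and Ccl4, Ltbp4, Rsrp1 and Kdr lower, with no overlap of the groups, while those of Cxcl10 overlap, and none passed the adjusted test.

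Among 25 endothelial identity genes tested, 8 had a positive difference (median -0.07) and none was called. Cldn5, on which the cells were chosen, is counted among the 25, with a difference of -0.04. Cldn5 stood at 3604, 4947, 4507 and 4440 CPM with metastases and 3924, 4020, 5241 and 4870 CPM without, as a description. Flt1 was at 2211, 2080, 2339 and 2168 CPM against 1778, 2970, 3200 and 2593 CPM, with the groups overlapping (log2 difference -0.22, limma adjusted p = 0.609). Ptprb, a phosphatase that acts on Tie2 and VE-cadherin, stood at 1170, 1112, 985 and 1140 CPM with metastases and 1401, 1490, 1590 and 1696 CPM without. Its groups did not overlap (log2 difference -0.47, SE 0.12, adjusted p = 0.287).

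Kdr, the main VEGF receptor, stood at 324, 431, 465 and 409 CPM with metastases and 683, 1031, 510 and 904 CPM without (log2 difference -0.83, SE 0.20, limma adjusted p = 0.287). The groups did not overlap. In the 30 alternatives the difference ran from -1.94 to -0.10, and it depended on the cells chosen. In cells of 2000 to 15000 raw UMIs, over 4 and 3 brains, Kdr was lower with metastases by 1.40 (adjusted p = 0.015). Emcn, a sialomucin of capillaries and veins, was lower there by 1.38 (adjusted p = 0.00476). In cells with more Cldn5 than Plvap (292 with metastases, 48 naive), Kdr was at 371 ± 64.2 and 401 ± 75.4 CPM (SD, n = 4 each), a log2 difference of -0.10 with an adjusted p of 0.862. This choice by Plvap had not been planned. Of the chosen naive cells, 7 held only 1 or 2 UMIs of Cldn5, and these together had 3558 CPM of Kdr and 2760 CPM of Plvap. The 47 naive cells with more Cldn5 had 393 CPM of Kdr and 2.77 CPM of Plvap. The 294 metastasis cells with more than 2 UMIs also had 393 CPM of Kdr, with 141 CPM of Plvap.

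No barrier gene was called. Of 9 tight junction genes, 2 were positive (median -0.13), and Cldn5, on which the cells were chosen, is counted among the 9. Lsr, the angulin of tricellular junctions, stood at 205 ± 6.56 against 253 ± 19.8 CPM with no overlap (log2 difference -0.25, SE 0.12, limma adjusted p = 0.451). Jam2, a junctional adhesion molecule, stood at 129 to 230 CPM and 196 to 314 CPM, with overlap. Of 20 barrier transporters and receptors, 15 were positive, with a median of 0.24 beside 0.03 for all genes. Slc2a1, the glucose carrier of the barrier, stood at 2249, 1442, 1854 and 1875 CPM with metastases and 2038, 1337, 1649 and 1155 CPM without. These groups overlapped (log2 difference 0.27, SE 0.19, adjusted p = 0.576).

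Slco2b1, an organic anion carrier, was the 1 member of 20 that was higher with no overlap (4.57% over all genes), at 143, 118, 161 and 152 CPM against 71.8, 115, 98.2 and 66.0 CPM (log2 difference 0.50, SE 0.16, adjusted p = 0.353). Slc16a1, the lactate carrier, stood at 350 ± 115 against 183 ± 80.9 CPM, and Slc9a3r2, a scaffold beneath membrane proteins, at 530 ± 85.3 against 815 ± 217 CPM (SD, n = 4 each). The list median stayed positive in all 30 alternatives, between 0.07 and 0.66. Of 14 Wnt and beta-catenin genes of barrier vessels, 5 were positive (median -0.17), and Sox17 and Tnfrsf19 had differences of -0.58 and -0.37.

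Genes of the vessel's position along the arterial to venous axis differed in sign by list. All 14 arterial genes tested had a negative difference, with a median of -0.76, beside 1524 negative of all 3328 genes. Groups did not overlap in 3 of the 14, beside 3.49% lower without overlap over all genes. Efnb2, the arterial ephrin, stood at 44.4, 32.0, 48.2 and 53.8 CPM with metastases and 80.8, 105, 157 and 99.0 CPM without (log2 difference -0.75, SE 0.18, limma adjusted p = 0.287). Bmx, an arterial kinase, was at 51.8, 58.0, 24.6 and 41.6 CPM against 89.8, 66.8, 177 and 125 CPM. Fbln2, an elastic fibre protein, had a mean of 37.0 ± 18.3 against 121 ± 60.1 CPM (log2 difference -0.95, SE 0.25, adjusted p = 0.317).

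Gkn3, an arterial marker of brain vessels, stood at 128, 365, 35.0 and 335 CPM with metastases and 593, 210, 432 and 911 CPM without, and here the groups overlapped. The arterial median stayed negative in all 30 alternatives, between -1.53 and -0.43. It describes naive brains of 7 to 19 cells each. Of 12 venous genes 8 were positive (median 0.36), led by Lrg1 and Vwf, the von Willebrand factor (938 ± 186 against 647 ± 118 CPM, log2 difference 0.50, adjusted p = 0.353). Ackr1, the chemokine carrier of venules, stood at 2029 CPM in naive heterozygous brain 1 and at 95.5, 0 and 26.4 CPM in the other naive brains, against 378 to 671 CPM with metastases. Of 11 capillary genes 6 were positive (median 0.01).

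Angiogenesis and tip cell genes were split, with 12 of 22 positive and a median of 0.02. Angpt2, which destabilises vessels by acting on Tie2, stood at 54.7, 13.0, 222 and 140 CPM with metastases and 0, 47.7, 0 and 6.60 CPM without. The 2 homozygous brains with metastases were the highest, and the groups overlapped (log2 difference 1.16, SE 0.41, limma adjusted p = 0.353). A count of 0 allows up to 26.9 CPM in naive heterozygous brain 1 and 58.9 CPM in naive homozygous brain 1, taking 3 corrected UMIs as the limit. Apln, the tip cell ligand, was at 24.4, 0, 345 and 157 CPM against 0, 0, 39.3 and 0 CPM (log2 difference 1.19, adjusted p = 0.407). Esm1, another tip cell gene, stood at 36.7 to 57.6 CPM with metastases and at 296, 306, 0 and 257 CPM without. The naive Esm1 lay in the 7 cells with 1 or 2 UMIs of Cldn5 (1805 CPM), while the 47 with more held 0 CPM. In cells with more Cldn5 than Plvap, Esm1 was at 0 CPM in every naive brain. With metastases it was at 0, 0, 44.2 and 18.3 CPM in those cells.

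Basement membrane and matrix genes were higher on balance, with 13 of 17 positive and a median of 0.36. Vwa1, a perlecan-binding matrix protein, stood at 438, 490, 738 and 710 CPM with metastases and 341, 353, 412 and 462 CPM without (log2 difference 0.52, SE 0.18, limma adjusted p = 0.353). Fn1, fibronectin, was at 782 ± 126 against 525 ± 192 CPM (0.57, SE 0.21, adjusted p = 0.353). In several of these genes the homozygous metastasis-bearing brains stood apart from the other 6. Col4a1, a collagen IV chain, was at 324 and 323 CPM in the heterozygous and 1124 and 981 CPM in the homozygous brains with metastases, and at 404 to 554 CPM in naive brains.

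Sparc, a matrix glycoprotein, was likewise highest in the homozygous brains with metastases, with 1094 and 1424 CPM in the heterozygous and 3095 and 2682 CPM in the homozygous brains with metastases, against 1089 to 1335 CPM in naive brains. Trp53i11 stood at 22.2 and 29.6 CPM in the heterozygous, 298 and 90.6 CPM in the homozygous and 19.6 to 28.6 CPM in the naive brains. These genes were singled out after their values were seen, and with 2 brains a genotype no test of the genotype was made. Fibroblast markers summed to 14.7 to 427 CPM with metastases and 8.98 to 238 CPM without, and their part in the matrix genes was not tested.

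Signalling lists that maintain quiet endothelium had negative medians. Of 12 shear stress and nitric oxide genes 2 were positive (median -0.45), and 3 were lower without overlap, Ptprb, Cavin2 and Heg1, beside 3.49% over all genes. Cavin2, which shapes caveolae, stood at 381, 348, 305 and 330 CPM with metastases and 593, 420, 550 and 528 CPM without (log2 difference -0.54, SE 0.14, limma adjusted p = 0.317). Klf2, the flow-induced transcription factor, was at 2382, 1611, 1720 and 1855 CPM against 1967, 2893, 2591 and 3154 CPM, with overlap. Of 15 TGF-beta and BMP genes 5 were positive (median -0.35).

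Id3, a BMP target that blocks differentiation factors, stood at 1469, 1685, 1047 and 1273 CPM with metastases and 1751, 2053, 1943 and 2118 CPM without, with no overlap (log2 difference -0.52, SE 0.15, limma adjusted p = 0.352). Acvrl1, the endothelial BMP receptor ALK1, ran from 307 to 377 CPM against 393 to 726 CPM. Of 9 Notch genes 2 were positive (median -0.33). Jag2, a Notch ligand, stood at 76.1, 40.3, 89.7 and 95.5 CPM against 153, 134, 196 and 205 CPM, with no overlap (log2 difference -0.83, SE 0.19, adjusted p = 0.26), and Notch4, a receptor of endothelium, stood at 22.5 to 76.5 CPM against 58.9 to 135 CPM. The medians of the shear stress and the TGF-beta and BMP lists were negative in all 30 alternatives, and that of Notch was negative in 29.

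Inflammatory and interferon lists had medians near that of all genes. Of 17 chemokines and inflammatory mediators 9 were positive (median 0.13), and of 38 interferon-stimulated genes 25 were positive (median 0.13), beside 54.2% positive over all genes. Cxcl10, the interferon-induced chemokine that draws T and NK cells and whose upstream sequence is printed above, stood at 90.9, 128, 639 and 255 CPM with metastases and 98.8, 9.55, 19.6 and 39.6 CPM without. The homozygous metastasis-bearing brains were the highest and the groups overlapped (log2 difference 1.64, SE 0.45, limma adjusted p = 0.352). In cells of 2000 to 15000 raw UMIs, without naive homozygous brain 1, the difference was -0.03. Ifitm1, an interferon-induced membrane protein, was at 409, 433, 292 and 330 CPM against 135, 267, 196 and 59.4 CPM, with no overlap (1.05, SE 0.28, adjusted p = 0.352).

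No gene of antigen presentation was called. Of 18 MHC class I genes 6 were positive (median -0.12), with Psme2, an activator of the immunoproteasome, at 162 to 214 CPM against 211 to 373 CPM. The 4 MHC class II genes tested were all negative (median -1.77). H2-Aa stood at 11.8, 22.5, 58.6 and 17.1 CPM with metastases and 62.9, 487, 825 and 79.2 CPM without (log2 difference -1.93, SE 0.57, limma adjusted p = 0.352). Cd74, the invariant chain, was at 68.8, 61.6, 184 and 31.8 CPM against 126, 917, 1806 and 139 CPM. The naive brains differed widely here, heterozygous brain 2 and homozygous brain 1 carrying most. Immune markers were higher in naive brains too, but their highest sum (844 CPM) was in heterozygous brain 1. That brain had the least H2-Aa and Cd74 of the naive brains. Monocyte and macrophage markers summed highest in naive heterozygous brain 2 and homozygous brain 1 (955 and 471 CPM). The part of such cells in the class II genes was not tested.

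Metabolic lists had positive medians. Of 16 hypoxia and glycolysis genes 14 were positive (median 0.26), and Pkm, pyruvate kinase, stood at 411, 381, 676 and 653 CPM with metastases and 341, 325, 236 and 290 CPM without, with no overlap (log2 difference 0.71, SE 0.20, limma adjusted p = 0.352). Of 26 oxidative phosphorylation genes 19 were positive (median 0.11), a size within the offset of the tables, and 5 were higher without overlap, beside 4.57% over all genes. Atp5b was at 578 ± 12.2 against 472 ± 62.6 CPM and Sdhb at 135 ± 14.9 against 92.2 ± 12.2 CPM. The 4 proliferation genes tested were all positive (median 0.31), with H2afz at 704 ± 170 against 478 ± 17.6 CPM, while the other 16 of the list were below the level for testing.

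The remaining lists held no called gene either. Of 8 leukocyte adhesion genes 4 were positive (median -0.14), and Podxl, an anti-adhesive sialomucin, stood at 328, 349, 288 and 308 CPM against 476, 707, 432 and 568 CPM with no overlap. Of 8 coagulation genes 6 were positive (median 0.19), with Plat, tissue plasminogen activator, at 410 ± 117 against 271 ± 55.2 CPM. Of 24 immediate early and dissociation stress genes 10 were positive (median -0.06), led by Hspb1, a small heat shock protein, at 714 ± 78.2 against 1265 ± 420 CPM. Of 5 lipid genes 2 were positive (median -0.56), and Plpp3, a lipid phosphatase, stood at 58.9 to 1299 CPM in naive brains and 79.3 to 196 CPM with metastases.

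**Figure D3:**
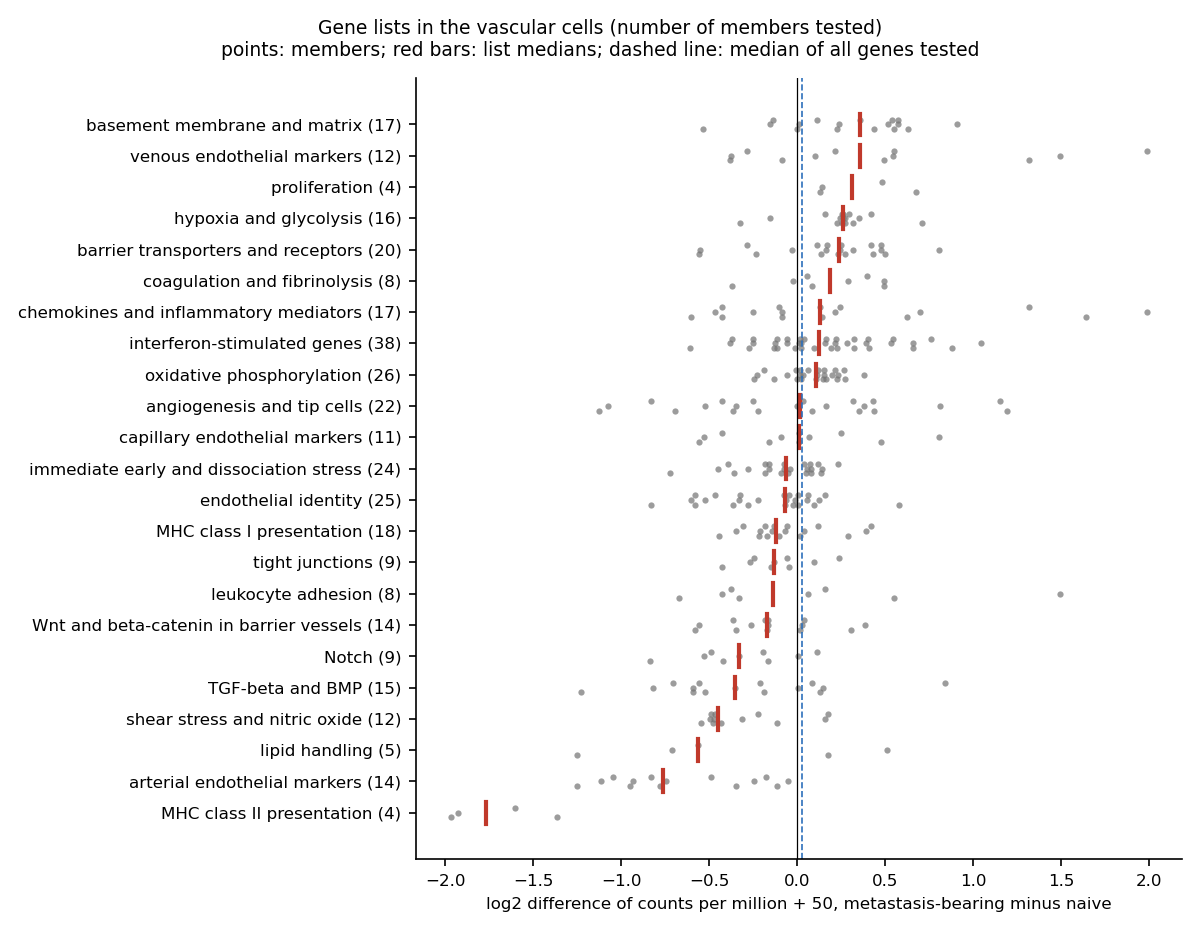
Log2 differences of the members of each gene list, metastasis-bearing minus naive, from limma on log2(CPM + 50), with red bars for list medians and a dashed line for the median of all 3328 genes (0.03). The 14 arterial and 4 MHC class II genes all lie below 0, and 15 of 20 barrier transporters lie above it, with no gene called.

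The clusters of the states also differed in their endothelial cells without Cldn5, which the rule left out. Of 117 cells in the naive cluster, 63 had no UMI of Cldn5, yet all 63 held Flt1 and 98.4% held Plvap, where 2.13% of the 47 naive cells with more than 2 UMIs of Cldn5 held it. Of the 149 metastasis cells of the cluster without Cldn5, 39.6% held Flt1, 30.2% Plvap and 46.3% Pdgfrb, a mural marker. Among cells with Flt1, Pecam1 and Cdh5, the share without Cldn5 was 25.7, 9.52, 0 and 20.5% in the metastasis-bearing and 54.2, 58.6, 71.4 and 50% in the naive brains. The brains of the states did not overlap in this share. The naive cells without Cldn5 held 32.2 CPM of Slc2a1 and 2896 CPM of Plvap, and those with more than 2 UMIs of Cldn5 held 1712 and 2.77 CPM.

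The comparison was repeated on cells of the same clusters with Flt1, Pecam1 and Cdh5 above 0 and no condition on Cldn5 (294 cells with metastases, 99 naive), a choice made after the data had shown this difference. Of 3455 genes, 178 (5.15%) were called higher and 252 (7.29%) lower with metastases. Plvap stood at 630, 417, 213 and 648 CPM with metastases and 2033, 2089, 1962 and 1556 CPM without, and it fell by 1.99 on the log2 scale (SE 0.26, limma adjusted p = 0.000811). Kdr fell by 1.61 (adjusted p = 2.07e-05), Emcn fell by 1.63 (adjusted p = 1.52e-05) and Esm1 fell by 2.19 (adjusted p = 0.000518).

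Barrier genes went the other way in these cells. Slc2a1 stood at 1660 ± 291 CPM with metastases and 673 ± 87.0 CPM without (SD, n = 4 each; log2 difference 1.23, SE 0.14, limma adjusted p = 0.000634). Slco1a4, an organic anion carrier of the barrier, stood at 1024 ± 191 and 404 ± 120 CPM (1.26, adjusted p = 0.00188). The naive side holds the larger share of cells without Cldn5, and no change within cells of 1 kind was tested. Of 18 barrier transporters 11 were called higher and 1 lower. Of 25 endothelial identity genes 1 was called higher, Cldn5 (log2 difference 1.02), and 11 lower. This list holds Flt1, Pecam1 and Cdh5, on which these cells were chosen, so its counts are a description. In the cells with Cldn5, Slc2a1 differed by 0.27, Slco1a4 by 0.14 and Plvap by -0.25, none of them called. Plvap stood there at 73.2, 188, 197 and 328 CPM with metastases and 341, 688, 0 and 330 CPM without. Naive homozygous brain 1, with 7 cells, was thus the lowest, and the other 3 naive brains lay above all 4 with metastases. For naive homozygous brain 2 this was narrow, 330 against 328 CPM where 1 of its UMIs is worth 6.60 CPM. Plvap was found in 6.25, 25.0, 0 and 15.8% of the 16, 12, 7 and 19 chosen naive cells, so few cells carried it. In cells with Cldn5 and 2000 to 15000 raw UMIs, Plvap was lower with metastases by 2.34 (SE 0.28, limma adjusted p = 0.00589). Naive homozygous brain 1 had under 5 such cells and was left out of that fit.

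The leading genes were followed through both choices of cells. Lrg1 differed by 2.36 (limma adjusted p = 0.000394), Cpe by 1.51 (adjusted p = 0.00071), Ctla2a by 1.80 (adjusted p = 0.00171) and Ltbp4 by -1.20 in the cells with Flt1, Pecam1 and Cdh5. In cells with more Cldn5 than Plvap the differences were 1.89, 1.20, 1.73 and -1.12. Ccl4 differed by -0.41 in the first of these choices and by -1.89 in the second (limma adjusted p = 0.0289), and neither choice had been planned.

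**Figure D4:**
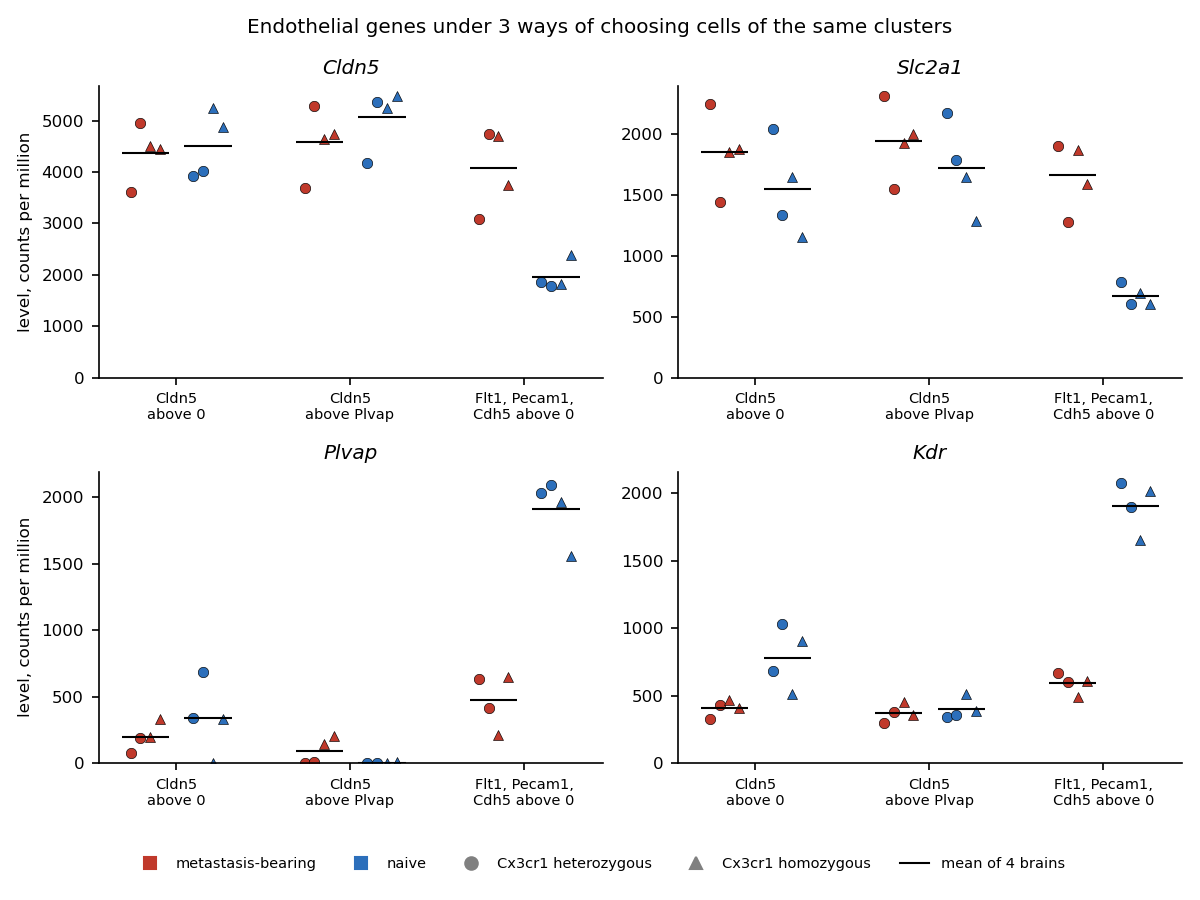
Levels of Cldn5, Slc2a1, Plvap and Kdr in CPM per brain under 3 choices of cells from the same clusters, with metastasis-bearing brains in red, naive brains in blue and bars for the mean of 4. With cells without Cldn5 let in, Plvap is higher in naive brains and Cldn5 and Slc2a1 lower, with no overlap. Kdr is higher in every naive brain both there and in the cells with Cldn5, and its groups overlap in cells with more Cldn5 than Plvap.

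The differences in the chosen vascular cells were set beside those in microglia-like cells of the same brains. The microglia-like cells were taken as the cluster with the highest P2ry12 in each table, 35 to 495 cells a brain. The log2 level in vascular cells minus that in microglia-like cells was computed for each brain and compared between the states, a comparison added after the data were seen. Of 1994 genes, 5 (0.251%) had a higher and 23 (1.15%) a lower difference in vascular cells by limma. The brains did not overlap in any of these 28. Over all 1994 genes, 72 were higher and 147 lower without overlap. Genes picked by a small p tend to separate in this way, so it is no separate support. All 23 of the lower ones were called higher with metastases in the microglia-like cells alone, and the other 5 were called lower there. Over all 2761 genes tested in the microglia-like cells, 577 were called higher and 615 lower. The gap subtracts the microglia-like level, so these directions are partly built in. None of the 28 was called in the vascular cells alone, where no gene was called at all.

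The interferon-induced genes Ifi27l2a, Ifitm3, Bst2, Isg15 and Lgals3bp were among the 23. Ifi27l2a differed by 2.79 in microglia-like and by -0.61 in vascular cells, a gap of -3.40 (SE 0.52, limma adjusted p = 0.00533). Ifitm3, a restriction factor already high in naive vessels, stood at 3409 and 2912 CPM in vascular cells with and without metastases and at 523 and 85.1 CPM in microglia-like cells, a gap of -1.75 (adjusted p = 0.00533). H2-K1 and H2-D1, the classical MHC class I heavy chains, had gaps of -1.09 and -1.07, with vascular differences of -0.30 and -0.14. Psme2 had a gap of -1.04 (adjusted p = 0.00897).

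The chemokines Ccl4 and Ccl2 had gaps of -2.72 each (adjusted p = 0.00874 and 0.0244). Ccl2 stood at 740 and 104 CPM in microglia-like cells with and without metastases and at 31.5 and 94.1 CPM in vascular cells. Cd74 had the largest gap, -3.75 (SE 0.76, adjusted p = 0.0244), with 471 and 75.8 CPM in microglia-like and 86.6 and 747 CPM in vascular cells, where 2 naive brains carried most of it. On the other side, Slco2b1 had a gap of 1.16 (SE 0.23, adjusted p = 0.0244), with differences of 0.50 in vascular and -0.66 in microglia-like cells. Hist1h1c, a linker histone, and Tmx4, a thioredoxin-like membrane protein, had gaps of 1.48 and 1.49. Without naive homozygous brain 1 the calls were 13 higher and 35 lower, and without either metastasis-bearing homozygous brain they were 1 higher and 11 lower.

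**Figure D5:**
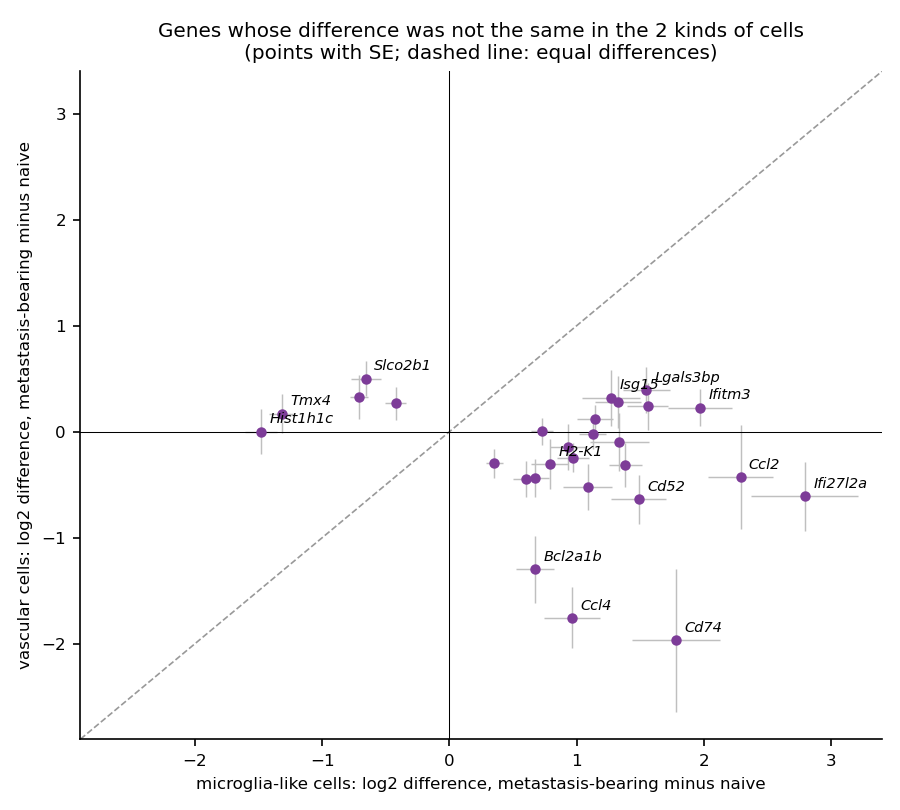
Log2 differences between metastasis-bearing and naive brains in microglia-like cells (x) and vascular cells (y) for the 28 genes whose gap was called among 1994, with SE as bars and a dashed line where both would be equal. The 23 lower ones lie to the right of 0 on the microglia axis and under that line, Ifi27l2a at 2.79 and -0.61.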

How the data were processed

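Cells of 8 hashed brains were sequenced as 1 pooled 10x 3' v3 library. Reads had been processed with Cell Ranger 3.1 and Seurat 3.1.1 against mm10, per the submitters' processing notes. The RNA tables deposited by the authors hold the natural log of 1 plus a depth-corrected UMI count. The values themselves show it, since expm1 gave whole numbers in 100.0% of nonzero values (relative tolerance 1e-06). The metadata deposited by the authors hold counts of raw UMIs per cell, other totals per cell (genes, hashtag UMIs, corrected UMIs), cluster numbers and hashtags. All deposited cells are classed there as hashtag singlets, and no doublet caller was run.

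Corrected counts were summed over the chosen cells of each brain and scaled to 1000000. log2(CPM + 50) was tested with limma 3.58.1 (lmFit, eBayes with a variance trend, R 4.3.3) for genes above 50 CPM on average, 4 against 4 brains, with Benjamini-Hochberg adjustment and a threshold of 0.05. Fold differences are on this scale, which understates low genes. Every brain had at least 5 chosen cells. The script was checked on simulated data. Tables were prepared with Python 3.11.15, numpy 2.4.6, pandas 2.3.3 and scipy 1.17.1. Wilson intervals and the limit of 3 UMIs for a 0 cover counting error only.

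Members and gene lists were chosen with earlier results of these data known, so no p is adjusted over a list. The genes named are Cldn5 and Flt1, the 2 members of smallest p of each pathway list, and the 10 genes of smallest p. Others are given as list members or, where stated, were chosen after their values were seen. The set of RefSeq upstream windows used here covered 36 of 50 named genes. Surface antibody tags are not analysed here, since the metadata used give their totals per cell only. The closing section gives the alternatives.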

Additional observations from a re-analysis of the deposited data

Results flagged for a closer look

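Of 102 groups of 4 brains examined (the share of vascular cells and the named genes in each state), 5 had a brain whose gap to its nearest neighbour, as a part of the group's range, exceeded Dixon's 95% critical value. Genes were judged on log2(CPM + 50) and the share in percent. Chance alone gives about 1 in 20 such groups. Metastasis-bearing heterozygous brain 1 had a vascular share of 8.49% where the other metastasis-bearing brains had 2.12 to 2.94%, a gap of 0.872 of the range. Naive homozygous brain 2 stood apart in Fbln2 (211 CPM against 85.9 to 98.2) and in Ltbp4 (831 CPM against 563 to 589). Naive heterozygous brain 2 stood apart in Acer2 (143 CPM against 71.8 to 78.5), an alkaline ceramidase. Metastasis-bearing heterozygous brain 2 stood apart in Tnfsf10 (130 CPM against 66.1 to 70.8).

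In 4 of the named genes the difference between the states was itself different in vascular and in microglia-like cells of the same brains, by limma on the difference per brain. The gap, vascular minus microglia-like, was -2.72 for Ccl4 (adjusted p = 0.00874), -1.04 for Psme2 (adjusted p = 0.00897), -3.75 for Cd74 (adjusted p = 0.0244) and 1.16 for Slco2b1 (adjusted p = 0.0244). In each of the 4 genes the brains of the states did not overlap in this gap, beside 72 higher and 147 lower without overlap among all 1994 genes. Immune markers in the vascular cells were lower with metastases, and their part in these gaps was not tested.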

How the results depend on the processing

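With 0 genes called higher and 0 lower by limma (407 at an unadjusted p under 0.05), the counts moved as follows. Both counts stayed at 0 with pseudocount 10, a filter of 10 CPM, no variance trend, array weights, cells with Cldn5 and Flt1, cells chosen by markers without clusters, shared barcodes kept, and cells with at least 100 hashtag UMIs. Calls were 2 higher and 0 lower with median-ratio scaling, with pseudocount 100 and with genotype as a covariate, 3 and 2 with the table offset removed, 2 and 3 at a filter of 200 CPM, and 2 and 1 with the mean over cells. They were 0 and 1 with at least 2 UMIs of Cldn5 or with more Cldn5 than Plvap, 1 and 1 when the latter was joined to the table offset, and 1 and 1 over brains of at least 10 cells. They were 1 and 9 in cells without Ptprc, Pdgfrb and Rgs5 (2 naive brains), 3 and 19 at 2000 to 15000 raw UMIs (3 naive brains), 261 and 372 in all cells of the clusters, and 178 and 252 in cells with Flt1, Pecam1 and Cdh5. The choices by Plvap, with or without the table offset, by hashtag UMIs and by Flt1, Pecam1 and Cdh5 were unplanned. The cause of these moves was not tested, beyond the cells and brains that each choice leaves.

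Leaving out each brain gave 0 to 1 higher and 0 to 1 lower calls. Ctla2a (2.10) passed without metastasis heterozygous brain 2, Ccl4 (-2.02) without naive heterozygous brain 2, Lrg1 (1.65) and Esm1 (-1.81) without naive homozygous brain 1, and Cpe (1.40) and Bcl2a1b (-1.67) without naive homozygous brain 2. Leaving out naive homozygous brain 1 and asking for at least 10 cells a brain are the same fit. Over the 27 distinct alternatives that keep the condition on Cldn5, Lrg1 was called in 8, Cpe and Ccl4 in 7 each, Ctla2a, Ltbp4 and Rsrp1 in 3 each and Esm1 in 2. The difference in share was 0.574 to 2.70 points when each brain was left out.

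For the gap between vascular and microglia-like cells (5 higher, 23 lower), calls were 1 and 16 with pseudocount 10, 8 and 28 with pseudocount 100, 8 and 45 at a filter of 200 CPM (393 genes tested) and 5 and 21 with more Cldn5 than Plvap. Leaving out each brain gave 1 to 13 higher and 11 to 35 lower.

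Of 1467 alternative values of the 50 named genes, that fit counted under both names, 1340 kept direction and side of the threshold, 106 passed it and 21, in 8 genes, changed sign. Cldn5 was 0.0241 with median-ratio scaling, 0.0838 with the table offset, 0.50 in all cluster cells, 0.0858 without Ptprc, Pdgfrb and Rgs5, 0.15 by markers without clusters, 0.0315 over brains of at least 10 cells, 0.0458 without metastasis heterozygous brain 1, 0.0315 without naive homozygous brain 1 and 1.02 in cells with Flt1, Pecam1 and Cdh5. In those cells Lsr was 0.64 and Tnfrsf19 0.38, and in all cluster cells they were 0.33 and 0.036. Lsr was also 0.0135 without Ptprc, Pdgfrb and Rgs5. By markers without clusters Lsr was 0.0388, Jam2 0.11, Pgk1 -0.24 and H2afz -0.11. Cxcl10 was -0.0278 at 2000 to 15000 raw UMIs, and Plpp3 0.0639 with more Cldn5 than Plvap and 0.0548 with the table offset as well. Of 690 list medians, 86 moved by more than 0.19, the median SE of a gene.

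No paired analysis was possible because replicate numbers only order the hashtags within a state and genotype, and brains of the 2 states share no animal. The planned tests of surface tags and of brains with at least 20 cells were not run, since tag totals only are used and no naive brain holds 20 cells. With 1 UMI worth up to 19.6 CPM in a naive brain, the lowest levels there rest on 1 to 3 UMIs.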
